A study of Mus musculus with 6 samples.

Results

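Small nucleolar RNAs (snoRNAs) were measured by 73 genes of the 22180 genes on these arrays, in endothelial cells sorted from mouse bone marrow. The members were the probe sets annotated with exactly 1 gene whose symbol begins Snord or Snora, with the brightest probe set kept for each gene by its mean over all 6 arrays. They held 47 box C/D genes (Snord) and 26 H/ACA genes (Snora). The rule used symbols and mean level and no difference between the groups.

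SnoRNAs are short noncoding RNAs of the nucleolus that guide the chemical modification of ribosomal RNA. Box C/D snoRNAs work in a particle with the methyltransferase fibrillarin and direct methylation of ribose, and H/ACA snoRNAs work with the enzyme dyskerin and direct the conversion of uridine to pseudouridine. A few, such as Snord118 (U8) and Snora73 (U17), take part in the cleavage of precursor ribosomal RNA instead. In mammals most of them are cut from the introns of host genes, many of which encode ribosomal proteins or are noncoding RNAs of the Snhg family, so that a host transcript and its snoRNA come from 1 precursor and then part ways.

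Arrays labelled diabetic numbered 3 and arrays labelled nondiabetic also 3, all from male C57BL/6J mice in which a high fat diet served as the model of diabetes. The diet entry, 60 kcal% fat over 4 months, is identical for both groups, so the food of the nondiabetic mice is not known here, nor is any age. Each sample was a sort of 5000 marrow endothelial cells, whose total RNA was amplified with the Ovation Pico WTA System V2 kit before hybridisation. Nothing in the labels tells separate from pooled mice, so the p-values reflect the scatter of these samples alone, and that scatter may be technical. Values are log2 expression made by the authors with RMA (robust multi-array average), and each step of 1 is a doubling.

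The array medians over all probe sets lay between 5.21 and 5.28. Endothelial identity was present in every array: all 14 markers fixed for it, among them Cdh5, Pecam1 and Emcn, passed the limit for dim genes. Their mean log2 level was 9.08 to 9.81 in diabetic and 9.12 to 9.62 in nondiabetic arrays. Markers of other marrow cells were also seen. The mean of 7 monocyte and macrophage genes was 6.41 to 6.84 in diabetic and 5.88 to 6.29 in nondiabetic arrays, with no overlap. Each of the 7 had the higher mean in diabetic arrays, as did 49.1% of all genes. Singly, Ccr2, Ms4a6c and Adgre1 were apart, while Csf1r, Cd68, Ly86 and Mpeg1 overlapped between the groups. Mpeg1 and Adgre1 lay under the limit for dim genes, and 0 of the 5 tested genes had a limma adjusted p under 0.05. The mean of 7 neutrophil genes was 6.63 to 6.70 against 6.23 to 6.61, also apart, with 5 genes higher and 2, Ltf and Camp, lower in mean. S100a8 had the largest difference of these, 0.99, with 1 nondiabetic array at 3.52, and its groups overlapped. Without S100a8 the neutrophil means overlapped between the groups. Ltf and Camp lay under the limit for dim genes. By contrast the means of B lymphoid (5.83 to 6.46 against 5.74 to 5.97), megakaryocyte and stromal genes overlapped between the groups. Erythroid genes, of which 2 of 5 were measured, also overlapped. The mean of the 4 megakaryocyte genes, 9.32 to 9.996 against 9.02 to 9.99, was about as high as that of the endothelial genes. Ppbp, at a mean of 11.36, was brighter than the brightest endothelial marker, Cdh5 at 10.93. Among the 7 neutrophil genes Mpo and Elane were the brightest, at means of 10.58 and 8.62, and both overlapped between the groups.

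SnoRNA genes ran from a mean level of 2.79 to one of 9.91. A gene was tested for a difference only if its mean level reached 5.07 on the log2 scale, the 40th percentile of all genes, below which a probe set may show background alone. Of the 73 genes 44 passed, which is 60.3%, beside 60.0% of all other genes. The limit is a rank among these same genes, so 60% of all genes pass by definition, and passing is no call of detection. The share was 55.3% for box C/D genes (26 of 47) and 69.2% for H/ACA genes (18 of 26). The genes nearest to the limit were Snora16a at 5.14 and Snora35 at 5.17 inside it, and Snord15a at 5.07 and Snord69 at 5.05 outside it. Probe sets differ in how strongly they respond, so a high level does not rank the amounts of the RNAs themselves.

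**Figure D1:**
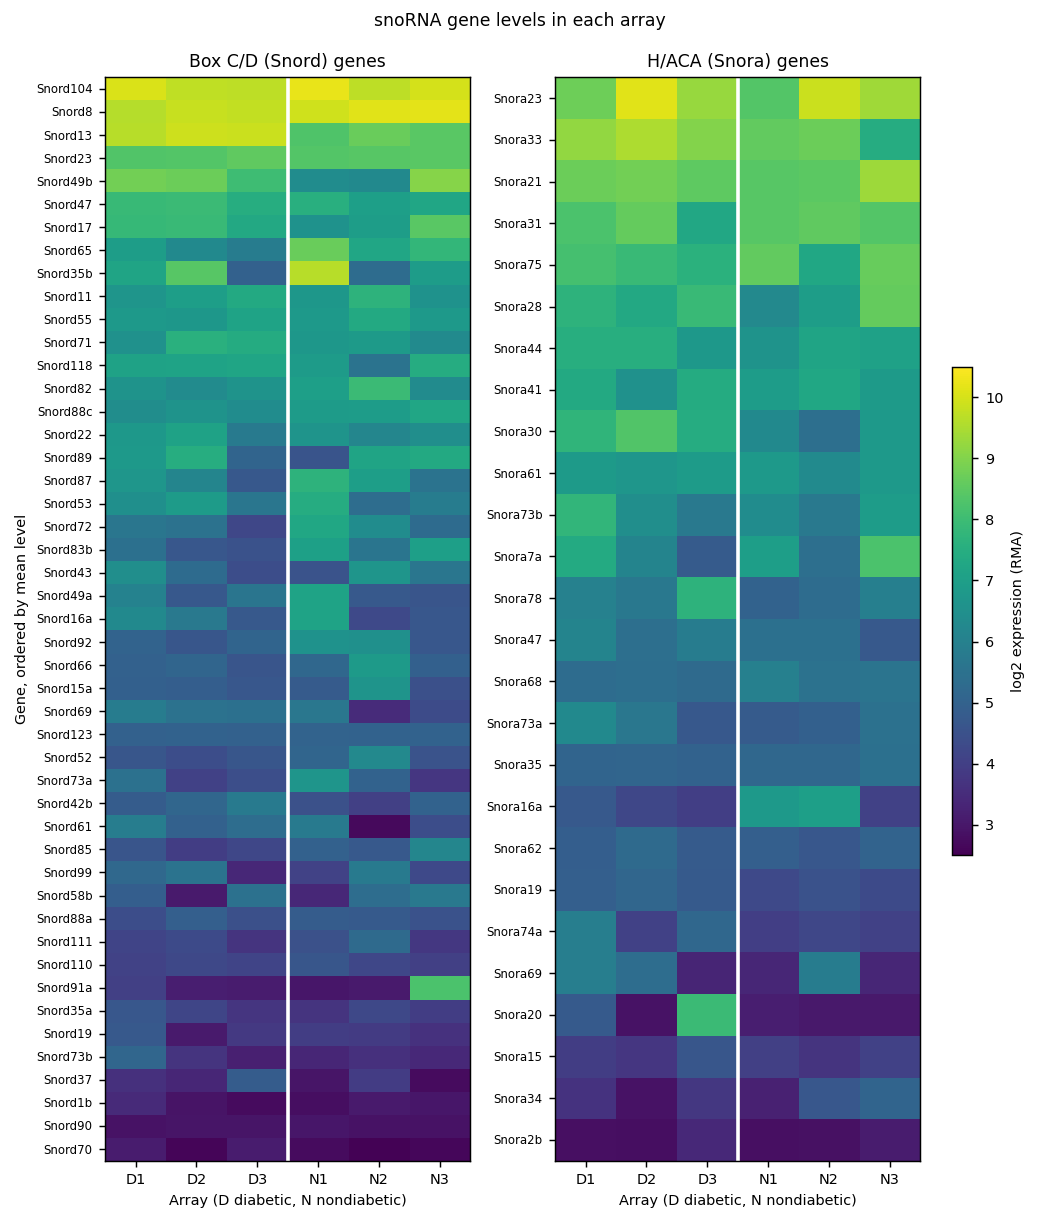
Log2 expression of the 47 box C/D and 26 H/ACA genes (rows, ordered by mean level) in the 3 diabetic arrays (D1 to D3) and the 3 nondiabetic arrays (N1 to N3). Colour runs from dark (low) to yellow (high). Rows such as Snord104, Snord8 and Snord23 keep 1 colour across all arrays, while Snord35b, Snord91a and Snora20 change colour between arrays of the same group.

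Of the 4 brightest box C/D genes, Snord13 is described with the group comparison, and the other three varied little within a group. Snord104 stood at 10.06, 9.74 and 9.71 in the diabetic arrays, against 10.24, 9.72 and 9.997 in the nondiabetic arrays. Snord8, which lies within Chd8, stood at 9.59, 9.83 and 9.78, against 9.92, 10.16 and 10.16. Snord23, which lies within the ribosome biogenesis gene Nop53, stood at 8.31, 8.36 and 8.55, against 8.35, 8.44 and 8.44. The within-group SDs of these 3 genes, pooled over both groups, were 0.23, 0.13 and 0.10. For Snord8 and Snord23 that lay under the median SD of genes of like mean, which was 0.22 and 0.26. The nondiabetic arrays of Snord8 lay above all its diabetic arrays, and those of Snord104 and Snord23 overlapped.

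The brightest H/ACA genes varied more. Snora23, which lies within the nuclear import gene Ipo7, stood at 8.72, 10.13 and 9.26 in the diabetic arrays and at 8.35, 9.87 and 9.36 in the nondiabetic arrays. Both groups spanned more than 1 unit, and the groups overlapped. Snora33, within the ribosomal protein gene Rps12, stood at 9.19, 9.53 and 9.01, against 8.57, 8.71 and 7.45. Snora21, within Rpl23, stood at 8.70, 8.80 and 8.52, against 8.42, 8.48 and 9.32, and Snora31, within Tpt1, at 8.24, 8.60 and 7.28, against 8.43, 8.54 and 8.35. In each of these last genes a single array stood off from the others of its group.

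Arrays of the same group differed widely in most of these genes. The median within-group SD was 0.64 for box C/D genes, with quartiles of 0.27 and 0.97, and 0.55 for H/ACA genes, with quartiles of 0.35 and 0.81. Over all other genes the median was 0.20. Each snoRNA gene was then set beside the 500 other genes nearest to it in mean level, whose median SD was about 0.21. By that measure 39 of 47 box C/D genes (83.0%) and 22 of 26 H/ACA genes (84.6%) had a larger SD than the median of genes of like mean. The median ratio was 3.30 for box C/D and 2.29 for H/ACA genes. An SD larger than that of 90% of genes of like mean was reached by 34 box C/D genes (72.3%) and 17 H/ACA genes (65.4%). These are descriptions of 6 arrays with no test, since the genes share arrays and are not replicates.

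**Figure D2:**
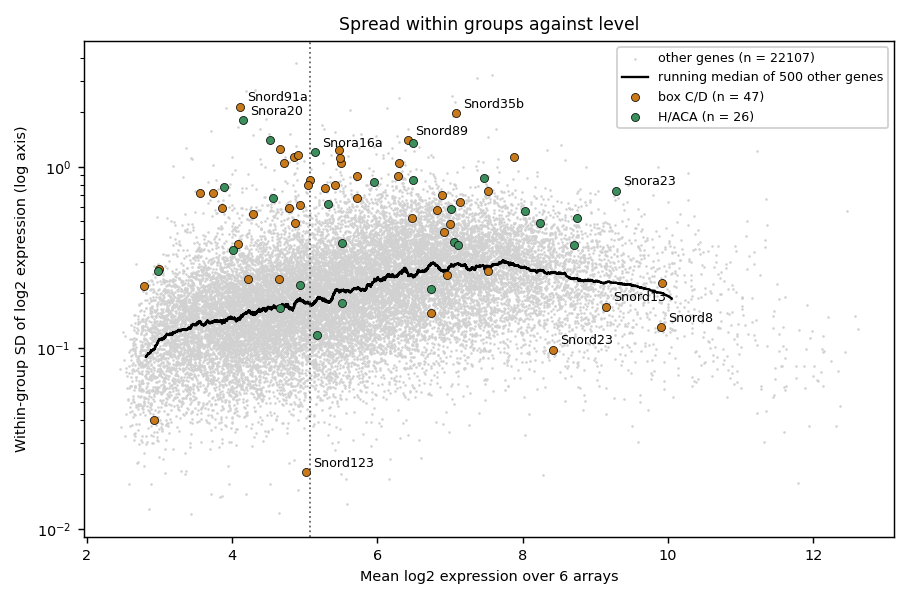
Pooled within-group SD (vertical, log axis) against mean log2 expression over 6 arrays (horizontal). Grey points are the 22107 other genes, the black line is their running median over 500 genes, orange points are box C/D genes, green points are H/ACA genes, and the dotted line is the limit for dim genes at 5.07. Most coloured points lie above the line, with Snord91a, Snord35b and Snora20 at the top and Snord13, Snord8 and Snord23 below it.

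Wide spans within a group were frequent. In 21 of the 73 genes (28.8%) the values of at least 1 group spanned more than 2 units, a limit set after the values were seen, while 0.61% of all other genes did so. They were 15 box C/D and 6 H/ACA genes. The span was in the diabetic group for 10 genes and in the nondiabetic group for 18. Snord91a, the gene with the largest SD, stood at 4.02, 3.16 and 3.12 in the diabetic arrays, against 2.98, 3.09 and 8.25 in the nondiabetic arrays. A single nondiabetic array was bright and the other 5 lay under the dim limit. Snora20, which lies within the chaperonin gene Tcp1, stood at 4.76, 2.89 and 7.97, against 3.16, 3.03 and 3.05, so there a single diabetic array was bright. Snord35b stood at 7.18, 8.43 and 4.98, against 9.64, 5.32 and 6.93. Both of its groups spanned more than 3 units and overlapped.

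Other members with wide spans included both single bright or dim arrays and graded values. Snora16a, within the noncoding host Snhg12, stood at 4.73, 4.21 and 4.00 in the diabetic arrays, against 6.84, 7.03 and 4.05 in the nondiabetic arrays, so that 2 nondiabetic arrays were bright and 1 was not. Snord89 stood at 6.84, 7.48 and 5.09, against 4.58, 7.16 and 7.36, with a single low array in each group. Snora7a, within Rpl32, was graded in both groups, at 7.38, 6.10 and 4.79, against 6.99, 5.42 and 8.24. Snora69, within Rpl39, stood at 5.91, 5.35 and 3.33, against 3.37, 5.87 and 3.35. The bright and dim arrays differed from gene to gene.

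No single array carried all of the spread, though the lowest values fell unevenly on the arrays. Over the 73 genes, the array with the highest value was diabetic replicate 1 for 13, replicate 2 for 12 and replicate 3 for 9, and nondiabetic replicate 1 for 15, replicate 2 for 10 and replicate 3 for 14. The lowest value fell in diabetic replicate 3 for 23 of the 73 genes, beside 3561 of the 22107 other genes. It fell in diabetic replicate 1 for 3, beside 5170 of the other genes, and in the remaining arrays for 10 to 14. With each array left out in turn, 14 to 20 genes still spanned more than 2 units within a group. The lowest of these counts, 14, was without nondiabetic replicate 1, against 0.42% of other genes, and it was 15 without nondiabetic replicate 3. Between arrays of 1 group the correlation across the 44 tested snoRNA genes was 0.58 to 0.93, while across the 13264 other tested genes it was 0.93 to 0.95. Across all 73 snoRNA genes it was 0.76 to 0.94, and across all 22107 other genes 0.97 to 0.98. The sets differ in their range of levels, on which such a correlation also depends. Genes, not samples, are the points here, and they share the arrays.

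The spread was as wide above the dim limit as below it, and narrower at the top for box C/D genes. The 29 dim genes had a median SD of 0.60, the 35 genes between the limit and 8 a median of 0.70, and the 9 genes at 8 or above a median of 0.37. Within this last class the 4 box C/D genes had SDs of 0.10 to 0.23, and the 5 H/ACA genes 0.37 to 0.74. Over all 73 genes the correlation of SD with mean level was weak (Pearson r = -0.12, Spearman rho = -0.09, across genes). The length of the RNA in RefSeq, 48 to 221 nucleotides, showed no relation to the SD either (r = -0.03, rho = -0.05, across genes). The median length was 68 nucleotides for box C/D and 118.5 for H/ACA genes.

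Other gene classes give a scale for this spread. Genes of microRNAs, which are also short and noncoding, had a median within-group SD of 0.21 over 478 genes, and 4.603% of them spanned more than 2 units within a group. They were mostly dim, with a median level of 4.104, and the 138 that passed the dim limit had a median SD of 0.33, beside 0.60 for the 44 tested snoRNA genes. This comparison is not matched on level. Genes of cytosolic ribosomal proteins, many of which host snoRNAs, had a median SD of 0.13 over 68 genes, and 0 of them spanned as much. The 5 genes of small Cajal body RNAs, which guide the modification of spliceosomal RNAs, had a median of 0.41.

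Most snoRNA genes varied more within a group than the gene around them. In the RefSeq annotation 70 of the 73 snoRNAs lay within the span of another gene, and Snord13, Snord118 and Snord89 did not. The table gives no strand, so the spanning gene is the likely host and not a proven one. For 60 snoRNA genes a spanning gene was itself measured by a probe set of its own, which gave 47 spanning genes. The snoRNA had the larger within-group SD in 55 of these 60 pairs. The exceptions were Snora61 in Snhg12, Snord90 in Rc3h2, Snord123 in Snhg18 (0.021 against 0.57), Snord8 in Chd8 (0.13 against 0.41) and Snord83b in Rpl3 (0.68 against 0.70). The median SD was 0.63 for the snoRNA genes and 0.18 for the spanning genes. These pairs were not matched on level, and the snoRNA gene was brighter than its spanning gene in only 6 of the 60. Some spanning genes were themselves under the dim limit and may show background, such as Snhg18 at 4.56, Rpl37 at 3.98 and Htr2c at 3.69. The SD of Snhg18 came mostly from diabetic replicate 3, at 5.55. Nor were all pairs separate, since 11 spanning genes held 25 of the snoRNA genes. Across the 60 pairs the log2 difference of the snoRNA gene did not track that of the spanning gene (r = 0.01, rho = 0.08, across genes that share the same arrays).

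**Figure D3:**
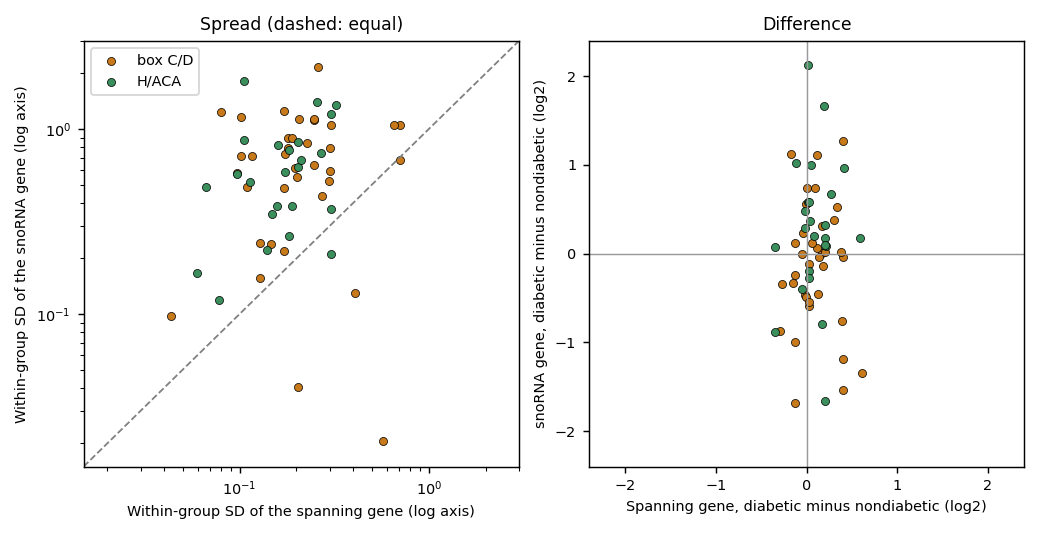
SnoRNA genes (orange box C/D, green H/ACA) against the measured gene that spans each of them, for 60 pairs. Left, within-group SDs on log axes with a dashed line of equality, above which 55 pairs lie. Right, log2 differences, diabetic minus nondiabetic, where the spanning genes run from -0.34 to 0.61 and the snoRNA genes from -1.68 to 2.13.

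Some hosts held snoRNAs with unlike differences. Among 11 spanning genes that hold more than 1 snoRNA gene, 6 held snoRNAs whose differences had the same sign and 5 held snoRNAs of opposite signs, some of them dim or close to 0, with no test. The noncoding gene 2410006H16Rik holds Snord49a, Snord49b and Snord65. Snord49b stood at 8.79, 8.72 and 8.03 in the diabetic arrays, against 6.38, 6.31 and 9.03 in the nondiabetic arrays, while Snord65 stood at 6.95, 6.30 and 5.86, against 8.68, 7.24 and 7.81. Thus Snord65 was lower in every diabetic array and Snord49b was high in all diabetic and in 1 nondiabetic array. The third, Snord49a, differed by -0.04, and the host transcript averaged 9.53 in diabetic and 9.13 in nondiabetic cells, a difference of 0.40 (SE 0.20) that did not pass (limma adjusted p = 0.997). Snhg12 holds Snora16a, Snora44, Snora61 and Snord99. Their within-group SDs were 1.21, 0.37, 0.21 and 1.05, and that of Snhg12 was 0.31.

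For the question of what differs in diabetes, 0 snoRNA genes passed the test over all 13308 tested genes (limma, adjusted p under 0.05), where 0.00751% of all tested genes did. At an unadjusted p under 0.05 there were 4 higher and 4 lower, together 8 of 44 or 18.2%, beside 4.25% of all tested genes (3.19% higher and 1.07% lower). Among the lower ones, Snora16a and Snord83b passed the dim limit only through their nondiabetic arrays. Their diabetic means were 4.31 and 4.88, against 5.97 and 6.56, so these members of the count depend on the filter. The groups did not overlap for 9 of the 44, with 3 higher and 6 lower in diabetic cells, or 20.5%, beside 7.95% of all tested genes (5.28% higher and 2.67% lower). Limma draws each SD toward that of all genes, and the SD it used was smaller than the gene's own for 36 of the 44, with medians of 0.46 and 0.60. The unadjusted count was 17 without nondiabetic replicate 3 and 7 to 10 without any other single array. In sorted cells, a change in the mix of cells and a change in RNA per cell cannot be told apart.

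Snord13 came nearest to a call. This box C/D snoRNA, U13, is needed for an acetylation of small subunit ribosomal RNA, and it is 1 of the 3 members with no spanning gene. It stood at 9.63, 9.90 and 9.87 in the diabetic arrays, against 8.30, 8.68 and 8.46 in the nondiabetic arrays. All diabetic values lay above all nondiabetic values, and the gap between the groups was several times the spread inside them. The means were 9.80 ± 0.15 and 8.48 ± 0.19 (SD, n = 3 each), a difference of 1.32 (SE 0.17, 95% interval 0.94 to 1.71). By p it ranked 2 among the 13308 tested genes, and it did not pass (limma adjusted p = 0.302). With each array left out in turn the difference was 1.24 to 1.42, and under the other settings tried it was 1.29 to 1.38, with limma adjusted p-values from 0.0881 with array weights to 0.99996 without diabetic replicate 2. Its within-group SD of 0.17 lay under the median of 0.23 for genes of like mean, unlike most snoRNA genes. The mean of the 7 monocyte genes lay higher in the same diabetic arrays. That of the 7 neutrophil genes, with 2 of them lower, was apart only with S100a8 included. The part of such cells in the Snord13 difference was not tested.

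**Figure D4:**
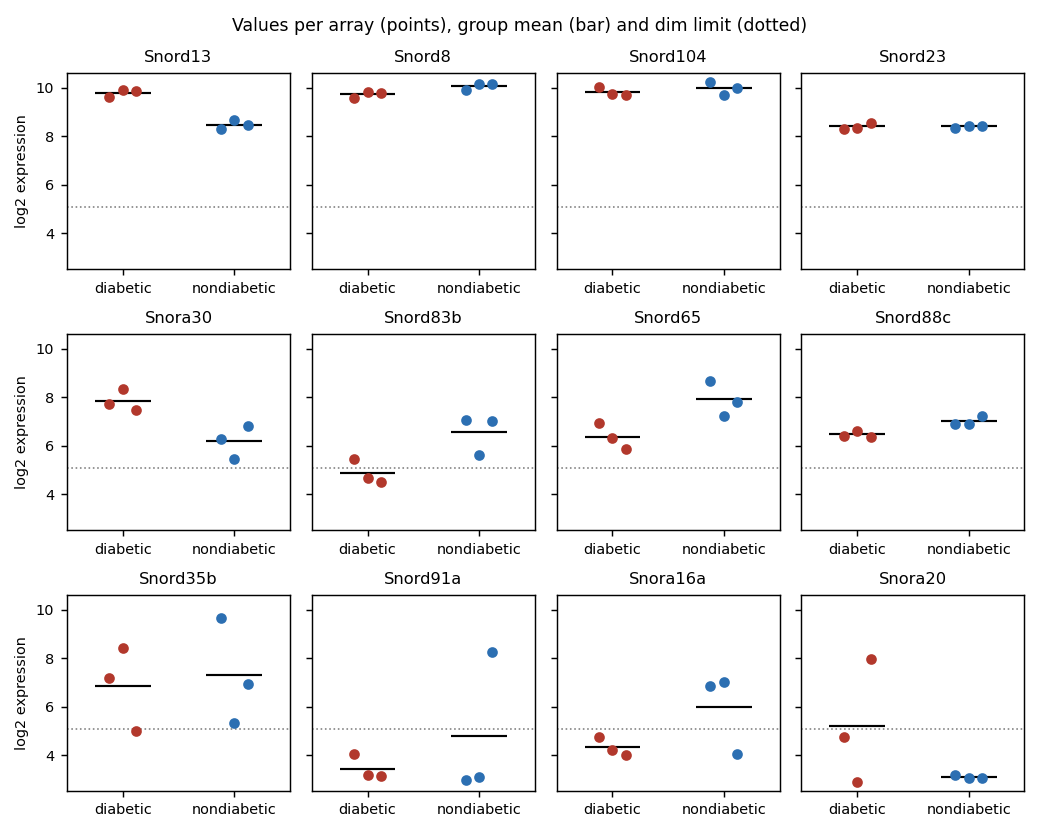
Log2 expression of 12 snoRNA genes in the 3 diabetic (red, left) and 3 nondiabetic (blue, right) arrays, with the group mean as a bar and the limit for dim genes at 5.07 dotted. The top row holds the 4 brightest box C/D genes, the middle row the genes with the next smallest p-values, and the bottom row genes with a large spread. In the top row the groups of Snord13 and of Snord8 do not overlap, with the diabetic arrays above for Snord13 and below for Snord8.

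The other members with the smallest p-values are given as values only. Snora30, an H/ACA RNA within the chromatin remodeling gene Srcap, stood at 7.74, 8.34 and 7.46 in the diabetic arrays, against 6.28, 5.43 and 6.81 in the nondiabetic arrays. Every diabetic array lay higher, and the difference was 1.67 (SE 0.36; limma adjusted p = 0.997). Srcap itself differed by 0.19. Snora33, given above, also lay higher in every diabetic array, by 0.999 (SE 0.33). Its second probe set stood at 7.74, 7.69 and 6.70, against 7.09, 6.54 and 6.37, a difference of 0.71 with overlap. Snord47, of the Gas5 locus, stood at 7.88, 7.96 and 7.47, against 7.54, 7.004 and 7.25, a difference of 0.51 (SE 0.20) with overlap. Snord71, Snora47 and Snora78 differed by 0.53, 0.59 and 1.03, each with overlap. Single arrays weighed on several of these. Snora33 differed by 0.60 and Snora47 by 0.34 without nondiabetic replicate 3, Snord71 by 0.33 without diabetic replicate 2 and 0.84 without diabetic replicate 1, Snora78 by 0.42 without diabetic replicate 3, and Snord49b by 2.17 without nondiabetic replicate 3 and 0.81 without nondiabetic replicate 2.

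Among genes with lower values in diabetic cells, Snord83b, within the ribosomal protein gene Rpl3, stood at 5.45, 4.67 and 4.52 in the diabetic arrays, against 7.05, 5.61 and 7.01 in the nondiabetic arrays. The groups were apart, with a difference of -1.68 (SE 0.41), and 2 diabetic arrays lay under the dim limit. Snord43, within the same host, differed by -0.24 (SE 0.62). Snord65, given above, differed by -1.54 (SE 0.39), while its host transcript had the higher mean in diabetic cells. Snord88c stood at 6.41, 6.61 and 6.38, against 6.90, 6.92 and 7.22, a small difference of -0.55 (SE 0.16) with groups apart and a within-group SD of 0.16. Snora16a differed by -1.66 (SE 0.71) with overlap, and all of its diabetic arrays lay under the dim limit. Snord72, Snora68, Snora31 and Snora35 differed by -1.19, -0.36, -0.40 and -0.19, and the groups of Snora68 and Snora35 were apart. The Snora31 difference was -0.020 without diabetic replicate 3 and -0.68 without diabetic replicate 2. Without nondiabetic replicate 1 Snord72 differed by -0.72 and Snora68 by -0.22, and without nondiabetic replicate 3 Snora35 differed by -0.0996 and Snora16a by -2.62. All of these had a limma adjusted p of 0.997.

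**Figure D5:**
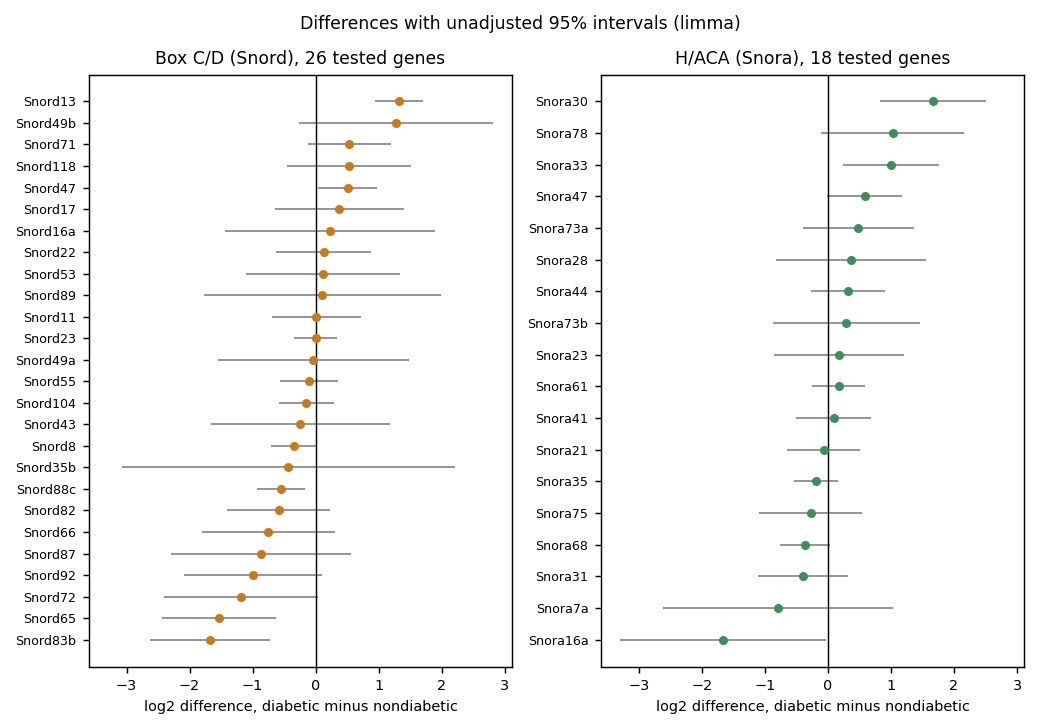
Log2 differences, diabetic minus nondiabetic, of the 26 tested box C/D and 18 tested H/ACA genes, with unadjusted 95% intervals from limma. Narrow intervals clear of 0 are seen for Snord13 and Snord88c, and intervals of genes such as Snord35b and Snora16a span several units.

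The intervals leave room for large differences in most members. The median width of the 95% interval was 1.72 units over the 44 tested genes, and for 30 of them the interval reached a doubling or a halving, that is 1 or -1 on the log2 scale. Over all 73 genes the size of the difference exceeded 1 in 13 genes, 7 higher and 6 lower. Among all other genes 0.30% differed by as much. The 13 included dim genes with no test, such as Snora20 and Snord91a, in each of which a single array was bright.

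Among the 29 dim members the groups were apart for 3 (10.3%), with no test, beside 8.69% of all genes under the dim limit. Snora19 stood at 4.94, 5.15 and 4.77 in the diabetic arrays, against 4.27, 4.52 and 4.31 in the nondiabetic arrays, and its 2 probe sets held identical values. Snord85 stood at 4.61, 3.96 and 4.20, against 4.999, 4.74 and 6.17. Snord123 lay between 4.99 and 5.06 on all 6 arrays. Most of these values lie under 5.07 and may be background. Of the snoRNAs within Rpl13a, which are known from rodent cells for a part in lipid-induced stress, Snord35a has a probe set of its own and was dim, at 4.66, 4.18 and 3.75, against 3.70, 4.24 and 3.96. Snord32a, Snord33 and Snord34 of that locus, Snord45c of Rabggtb and the Snord14 genes were measured only by probe sets that also name their host. The probe set naming Rabggtb and Snord45c stood at 7.27, 6.81 and 7.23, against 7.66, 7.52 and 7.01, with overlap. That naming Snord34 and Rpl13a stood at 4.34, 3.19 and 3.22, against 7.24, 4.24 and 3.02, with a single bright nondiabetic array. The probe sets naming Snord32a and Snord33 with Rpl13a lay above the dim limit, and their groups overlapped. Their means were 7.80 and 6.78 in diabetic arrays, against 8.03 and 7.03 in nondiabetic arrays.

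Snord118 and Snora73 were measured above the dim limit and overlapped. Snord118 stood at 7.12, 7.13 and 7.21 in the diabetic arrays, against 6.89, 5.54 and 7.47 in the nondiabetic arrays, a difference of 0.53 (SE 0.43, 95% interval -0.45 to 1.51). Its diabetic arrays were tight and its nondiabetic arrays were not. Snora73a and Snora73b, within Snhg3, differed by 0.48 (SE 0.38) and 0.29 (SE 0.51), and Snhg3 differed by -0.02 (SE 0.18).

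The box C/D and H/ACA classes were compared by their medians. The median log2 difference was -0.03 over the 47 box C/D genes, with 23 higher and 24 lower, and 0.19 over the 26 H/ACA genes, with 18 higher and 8 lower. Over all genes it was -0.00375, with 49.1% of them higher. The lean of the H/ACA genes (69.2% higher) was not particular to them, since 49 of 68 ribosomal protein genes (72.1%) were also higher. The class medians thus differed by -0.22, C/D minus H/ACA, and by -0.41 to -0.16 with each array left out. Per array, the median box C/D level minus the median H/ACA level was -0.36, -0.39 and -0.80 in the diabetic arrays, against 0.25, 0.12 and -0.21 in the nondiabetic arrays, with no overlap. Taken instead as the median of each gene's deviation from its own mean, the same quantity was -0.07, 0.02 and -0.16, against 0.20, 0.21 and -0.23, and the groups overlapped. Single genes ran more widely, with quartiles of -0.48 and 0.27 for box C/D and of -0.16 and 0.58 for H/ACA genes, and the distance between the class medians has no test.

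The proteins of the snoRNA particles did not pass the test. Of the box C/D core proteins, Nop56 stood at 8.67 ± 0.15 in diabetic and 8.49 ± 0.14 in nondiabetic cells (SD, n = 3 each), and Nop58 differed by 0.17 (SE 0.17), the RNA-binding protein Snu13 by -0.18 (SE 0.23) and the U3-associated Rrp9 by 0.29 (SE 0.16). Fibrillarin (Fbl) had no probe set of its own here. Of the H/ACA core, dyskerin (Dkc1) stood at 7.30 ± 0.19 against 7.48 ± 0.07, and Nhp2 at 6.82 ± 0.41 against 6.29 ± 0.19, a difference of 0.53 (SE 0.23). Gar1 and Nop10 differed by -0.07 and 0.02. The assembly factors Shq1 and Naf1 differed by 0.39 and 0.46, Naf1 being dim. By limma 0 of these 9 tested genes were called, and at an unadjusted p under 0.05 there was 1, Nhp2. Of 19 measured assembly and processing factors 15 had higher and 4 lower values, with a median difference of 0.09 and 0 called. Over all genes 49.1% had higher values, and the genes of a list share the arrays, so such counts have no test. Of 18 measured noncoding host genes 11 had higher and 7 lower values, with a median difference of 0.12 and 0 called. At an unadjusted limma p under 0.05, of 16 tested hosts 1 was higher and 1 lower, beside 4.25% of all tested genes. They were Snhg7, at 0.52 (SE 0.20), and Snhg17, at -0.79 (SE 0.32), both with groups apart. The lists' median within-group SDs were 0.16, 0.25, 0.21 and 0.25, all under those of the snoRNA classes.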

How the data were processed

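RNA of sorted marrow endothelial cells was measured on 6 arrays, 3 diabetic and 3 nondiabetic, grouped by the sample titles. The deposited log2 values come from RMA run by the authors, per the submitters' processing notes. Its software and version are not given in the sources. RMA sets the arrays to a common distribution, so a shift shared by all genes cannot be seen. The table held 41345 probe sets, of which the supplied annotation, which can be old, gives 1 gene to 23521, several to 1814 and none to 16010. All 73 snoRNA genes matched RefSeq (GRCm38.p6) by gene number. That table gave lengths and neighbours, and no coordinates are printed.

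Each gene took its brightest probe set by the mean over 6 arrays. Genes with a mean under the 40th percentile were left out, and 13308 were fitted with limma 3.58.1 (lmFit, eBayes, no covariates) in R 4.3.3, with Benjamini-Hochberg adjustment over all tested genes and a threshold of 0.05. Intervals are 95%. Within-group SDs pool both groups and cover all 22180 genes. The scripts were tested on simulated data. Same-numbered arrays did not deviate together (r = -0.04, -0.06 and 0.02 over tested genes), so numbers were not taken as pairs. The number of arrays limits the precision.

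Named genes were, per class, the 4 tested members with the smallest p per direction, the 4 of highest level and the 3 of largest SD, a fixed list of well-known snoRNAs, their spanning genes and the core proteins. Genes of a shared host, dim genes and others outside this rule (Snord49a, Snord43, Snora44, Snora61, Snord99, Snora19, Snord85, Snord90, Snord123, Snhg7, Snhg17) were chosen after their values were seen. Members, lists and tests were chosen with earlier results of these data known. Alternatives were each array left out, a replicate block, array weights, a trended and robust eBayes, requantiling, median centring, the mean of probe sets and other filters on dim genes.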

Additional observations from a re-analysis of the deposited data

Results flagged for a closer look

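Probe sets that name a snoRNA together with other genes were kept out of every comparison above. There are 43 of them, 28 with distinct values, and 16 hold the same values and name Snord116l1 and Snord116l2 of the imprinted Snord116 cluster together with Gm26504. In 2 of the 28 every diabetic array lay above every nondiabetic array, and in 1 every diabetic array lay below; over all 1814 probe sets with several names the shares were 3.80% and 3.64%. The probe set naming Snora17 and its host Snhg7 stood at 8.43, 8.99 and 9.21 in diabetic arrays, against 7.59, 6.41 and 7.75 in nondiabetic arrays, a difference of 1.63 on the log2 scale. A second probe set naming the same pair stood at 7.19, 8.26 and 8.01, against 7.48, 4.16 and 6.54, with overlap, and the probe set that names Snhg7 alone averaged 6.92 in diabetic and 6.396 in nondiabetic cells. The probe set naming Snord67 and Ckap5 stood at 7.49, 7.05 and 7.12, against 6.90, 6.75 and 6.87, a difference of 0.38. None of these was tested for a difference, and with several names the signal cannot be given to 1 gene.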

How the results depend on the processing

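The count of 0 called snoRNA genes held under every alternative run. The number with an unadjusted p under 0.05, 8 as reported, was 6 to 12 under the settings that keep all arrays and 7 to 17 with 1 array left out, the highest being without nondiabetic replicate 3; with the replicate block it was 11, and the block changed no call. The number of genes with a within-group span over 2 units, an alternative set chosen after seeing the data, was 21 or 22 with all arrays and 14 to 20 with 1 left out. Median SDs stayed between 0.47 and 0.72 for box C/D and between 0.42 and 0.56 for H/ACA genes, and class medians of the difference kept their sign. Of 61 named genes, 39 kept the sign of their difference throughout, 13 changed it only with an array left out and 9 under another setting. Array weights gave -0.019 for Snord23, 0.39 for Snord35b, 0.046 for Snora21, 0.076 for Rpl3, -0.065 for Zbed3, -0.0024 for Nop10 and -0.11 for Shq1. Requantiling gave -0.019 for Snord23, -0.0025 for Rps12 and -0.0067 for Tcp1, and the mean of probe sets gave -0.42 for Tcp1. The cause was not tested. With 1 array left out, the differences that changed sign ran over Snord23 -0.072 to 0.049, Snord91a -2.23 to 0.40, Snord35b -1.42 to 0.74, Snord89 -0.79 to 0.80, Snora23 -0.25 to 0.51, Snora21 -0.23 to 0.22, Snora73b -0.27 to 0.76, Snord118 -0.021 to 0.94, Snord35a -0.0025 to 0.45, Rpl3 -0.47 to 0.36, 2410002F23Rik -0.037 to 0.11, Chd8 -0.51 to 0.031, Rps12 -0.00401 to 0.13, Zbed3 -0.092 to 0.15, Htr2c -0.024 to 0.063, Tcp1 -0.062 to 0.051, Rpl32 -0.021 to 0.34, Snhg3 -0.16 to 0.084, Snu13 -0.31 to 0.031, Gar1 -0.16 to 0.038 and Nop10 -0.22 to 0.23. With 3 arrays a group, depth cannot be read from RMA values, and signal near the dim limit may be background.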
